A study of Mus musculus with 42 samples.

Results

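In the mouse cerebellum, 8 genes are described here that either encode peroxisome proliferator-activated receptors (PPARs) or are known to answer to these receptors and to fatty acids: Angptl4, Plin4, Pdk4, Cpt1a, Ucp2 and Plin2 as targets, and Ppara and Ppard as receptors. They were taken by gene symbol from both count tables and are 8 of the 35275 genes listed. The set was selected on their differences between the fasting regimens and AL in these libraries, so those differences of the 8 genes are described without a test, and the 8 are tested only after refeeding, in other libraries. Other genes were tested in both sets of libraries. All 6 groups were male C57BL/6 mice on the same standard diet. At 3 months of age they were assigned to food ad libitum (AL), to a daily fast of 16 h (IF16) or to fasts of 24 h on alternate days (EOD, every other day), and each group has 5 libraries from 6 months of age, after 3 months. The groups called refed AL, refed IF16 and refed EOD here (an R follows the group name in the plots), again with 5 libraries each, went through the same 3 months and then had 2 months of ad libitum feeding, to 8 months of age. The hour of collection relative to the last meal is not given in the sources used here. The labels name no transgene or deletion. The 30 RNA-seq libraries were made from frozen cerebellum, and total counts ran from 26799825 to 36167435 per library. The labels number the libraries of a group as replicates without saying that each came from another mouse, so p-values measure the spread between these libraries.

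PPARs are nuclear receptors that bind fatty acids and their derivatives, pair with a retinoid X receptor (RXR) and switch on genes that store, release and burn fat. In liver, PPARα turns on fatty acid oxidation and ketone body synthesis when food is withheld, and PPARδ does related work in muscle and is widely present in brain. The brain burns mainly glucose and, in long fasts, ketone bodies, and in it fatty acid oxidation is known chiefly from astrocytes. The receptors bind a pair of AGGTCA half-sites in the same orientation, with a single base between them.

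The 250 bases before the RefSeq start of transcription are shown for 3 targets that were higher in EOD in every library (Pdk4, Plin4, Cpt1a) and for Plin2, a target that was lower there. Sequences are from RefSeq on GRCm38.p6, given 5′ to 3′ along the gene's own strand. Capitals mark the match to AGGTCANAGGTCA with at most 2 of its 12 defined letters changed, on either strand.
Plin2 (chr4:86670060-86670309, minus strand): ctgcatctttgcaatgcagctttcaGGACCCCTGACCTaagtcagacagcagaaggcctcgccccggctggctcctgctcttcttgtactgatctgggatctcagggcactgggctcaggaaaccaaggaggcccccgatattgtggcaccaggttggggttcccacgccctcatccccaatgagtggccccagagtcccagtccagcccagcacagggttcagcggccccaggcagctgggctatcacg
Pdk4 (chr6:5496279-5496528, minus strand): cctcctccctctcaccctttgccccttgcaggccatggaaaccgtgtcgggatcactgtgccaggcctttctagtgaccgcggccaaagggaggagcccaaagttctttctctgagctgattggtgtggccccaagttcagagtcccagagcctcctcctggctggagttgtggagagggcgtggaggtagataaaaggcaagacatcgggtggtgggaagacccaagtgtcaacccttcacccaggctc
Plin4 (chr17:56109783-56110032, minus strand): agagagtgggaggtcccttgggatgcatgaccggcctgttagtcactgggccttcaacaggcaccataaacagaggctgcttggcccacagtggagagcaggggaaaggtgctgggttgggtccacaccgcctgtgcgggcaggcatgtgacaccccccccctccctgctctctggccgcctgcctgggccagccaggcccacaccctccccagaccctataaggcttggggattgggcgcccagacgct
Cpt1a (chr19:3323051-3323300, plus strand): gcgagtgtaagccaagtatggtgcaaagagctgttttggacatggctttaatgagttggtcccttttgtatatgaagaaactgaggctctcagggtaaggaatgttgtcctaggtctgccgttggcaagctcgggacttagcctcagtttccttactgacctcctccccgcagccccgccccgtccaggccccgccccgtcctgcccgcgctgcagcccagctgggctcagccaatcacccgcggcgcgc

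Of the 8 genes, 7 had a window in the RefSeq promoter table, from 250 bases before to 50 bases after the start, and Angptl4 had none. The match in Plin2 began 225 bases before the start and read AGGTCAGGGGTCC on the opposite strand, with 2 mismatches. No other of the 7 windows held one, and 3.86% of all 32851 windows did. The glucocorticoid response element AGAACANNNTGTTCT, also with at most 2 mismatches on either strand, was in 0 of the 7 windows and in 1.84% of all windows. The FOXO element GTAAACA, matched exactly on either strand, was in 0 of the 7 and in 3.65% of all. The motifs were searched separately, so their matches may overlap. An absent match says only that these letters were not in these 300 bases.

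The 30 libraries carried the transcripts of cerebellum. The mean log2 of CPM (normalized counts, scaled to library depth) of 8 granule cell markers lay between 8.97 and 9.27 in all libraries and that of 8 Purkinje cell markers between 8.37 and 8.75, against -0.97 to -0.18 for 5 forebrain markers. Choroid plexus RNA varied most, with a summed level of its 11 markers between 33.4 and 4270 CPM. One EOD library, replicate 1, held liver transcripts (Alb 1720 counts, Ahsg 300, Fga 108). Refed EOD replicate 5 held 724 counts of Alb but 0 of Ahsg, Fga and Fgb. AL replicates 4 and 5 and IF16 replicate 1 had fewer reads from long genes than the rest, and EOD replicate 4 had more. Marker genes of fat cells were near 0 throughout: the 7 listed summed to 0.147 to 0.798 CPM over the 30 libraries, and none of the 7 passed the filter on low counts. In bulk tissue, fewer cells of a type and less RNA per cell cannot be told apart.

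Levels per gene length, as the deposited FPKM (fragments per kilobase of gene, scaled to depth), set the receptors far apart. In AL, Ppard had the highest mean of the 8 genes, 17.9 FPKM ± 1.12 (SD, n = 5), and Ppara the lowest, 0.349 ± 0.203. Ucp2 followed Ppard at 16.6 ± 3.88 FPKM, and their libraries overlapped. Plin2 at 9.12 ± 1.05 and Cpt1a at 7.19 ± 0.834 FPKM also overlapped each other, while Pdk4 at 2.28 ± 0.365 and Angptl4 at 0.925 ± 0.217 FPKM each stood apart from its neighbours in the order. Plin4, at 0.372 ± 0.0589 FPKM, overlapped Ppara. In EOD the order was Ucp2 (21.7), Ppard (17.4), Cpt1a (9.14), Plin2 (7.71), Pdk4 (3.69), Angptl4 (2.37), Plin4 (1.5) and Ppara (0.432), all mean FPKM. Cpt1a thus stood above Plin2, although their EOD libraries overlapped, and Plin4 no longer overlapped Ppara.

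**Figure D1:**
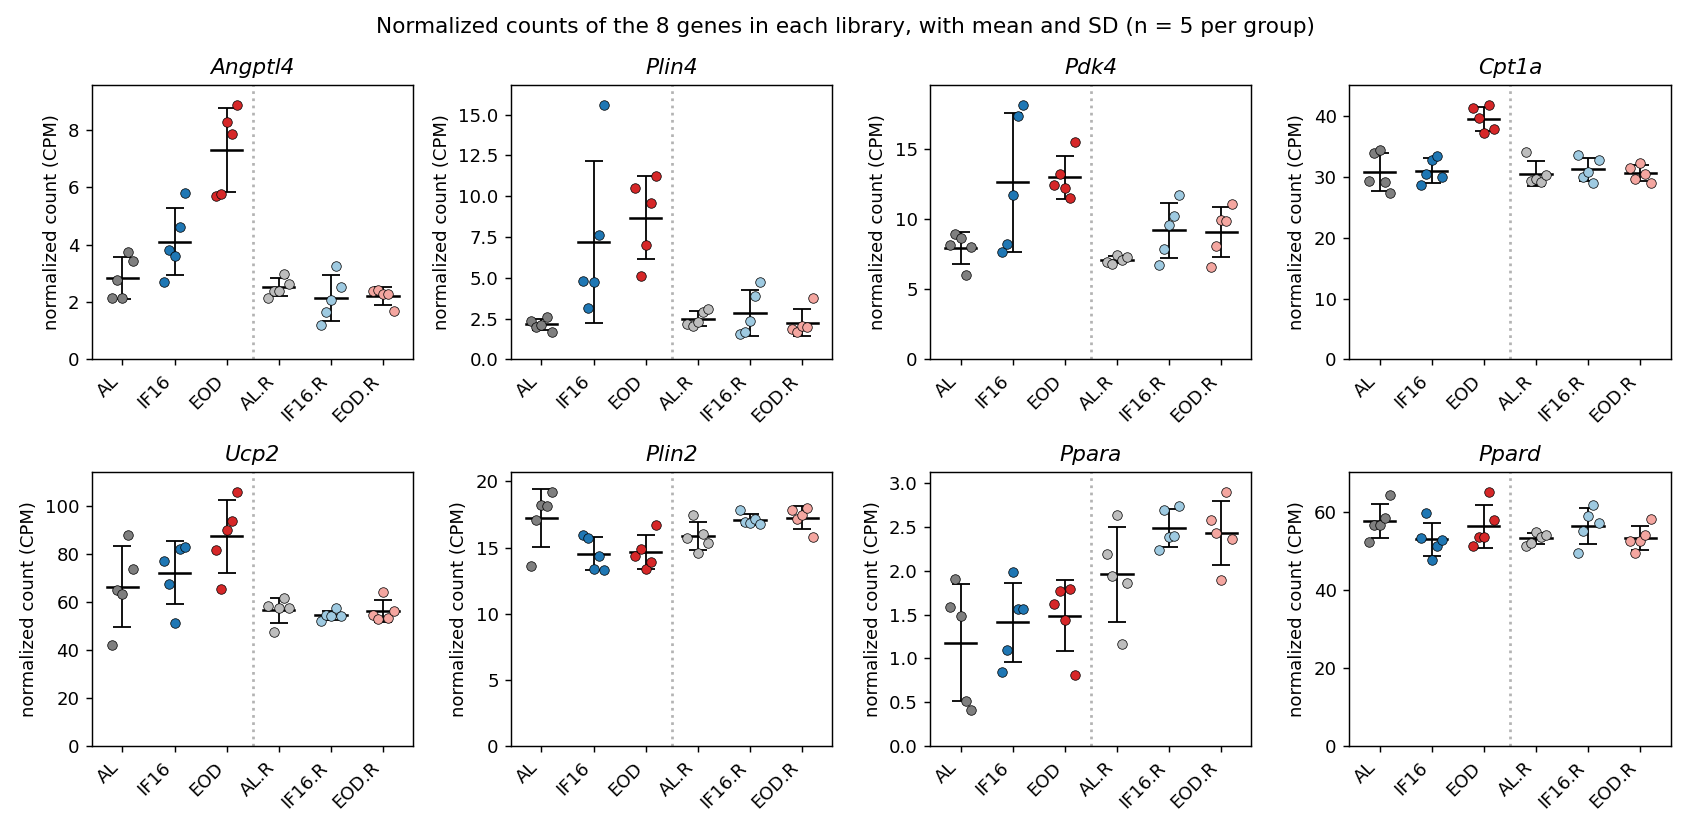
Normalized count (CPM, linear axis from 0) of each of the 8 genes in every library, by group; points are libraries, bars the mean and SD of 5. Angptl4, Plin4, Pdk4 and Cpt1a in EOD lie wholly above AL, and no group right of the dotted line (after refeeding) lies wholly above or below refed AL.

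Angptl4 encodes a secreted protein that blocks lipoprotein lipase, the enzyme that frees fatty acids from circulating fat particles. The gene lies on chromosome 17 from 33773750 to 33781575, minus strand. Its CPM, scaled within each table, was 2.14, 2.753, 2.142, 3.73 and 3.424 in AL replicates 1 to 5, and 2.704, 3.805, 3.599, 4.602 and 5.8 in IF16. In EOD it was 5.711, 5.779, 8.262, 7.87 and 8.861. All 5 EOD libraries exceeded the highest AL library, and 3 of the 5 IF16 libraries did, so IF16 and AL overlapped. The log2 fold change, estimated with edgeR, was 1.37 in EOD against AL (SE 0.21) and 0.53 in IF16 against AL (SE 0.21). The IF16 value was 0.92 without the 4 libraries whose share of reads from long genes stood apart, and 0.38 without IF16 replicate 5. Against IF16, EOD was higher by 0.83 (SE 0.20), with 3 of 5 EOD libraries above every IF16 library. The raw counts behind these values were 74 to 123 in AL and 155 to 317 in EOD. Lpl, the lipase gene itself, was scarce: AL libraries had 1.226 CPM ± 0.475, those of IF16 0.5527 ± 0.109 and those of EOD 0.8985 ± 0.141 (SD, n = 5 each). Lpl did not pass the test in edgeR in either comparison (log2 fold change -1.15, adjusted p = 0.165 in IF16, and -0.45, adjusted p = 0.374 in EOD). In IF16 it passed with DESeq2 (adjusted p = 0.0179), and in edgeR with each library's gene length gradient as a covariate (adjusted p = 0.0366), without AL replicate 5 (0.0449) and without the 4 libraries of extreme gradient, which are AL replicates 4 and 5, IF16 replicate 1 and EOD replicate 4 (0.0422). Lmf1, which matures the lipase, was at -0.25 in both comparisons (adjusted p = 0.516 and 0.355), and Gpihbp1, which anchors it to capillaries, did not pass the filter on low counts.

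Plin4 encodes perilipin 4, a coat protein of lipid droplets best known from fat cells and muscle. It lies on chromosome 17 from 56100591 to 56109803, minus strand, and its last 6 bases overlap Hdgfrp2 on the plus strand. Its CPM was 2.371, 1.958, 2.113, 2.577 and 1.696 in AL. In IF16 it was 4.777, 3.135, 4.74, 7.64 and 15.57, and in EOD 10.5, 5.111, 7.007, 9.575 and 11.24. Every library of both fasting groups exceeded the highest AL library. IF16 spread the most, with replicate 5 above every EOD library and replicates 1 to 3 below all of them. On the log2 scale Plin4 differed by 2.02 in EOD (SE 0.36) and 1.74 in IF16 (SE 0.36), and 1.24 in IF16 without replicate 5. Raw counts were 53 to 85 in AL and reached 518 in IF16. Hdgfrp2 stood at -0.12 in EOD and -0.07 in IF16 on the same scale. Plin2, the perilipin found in most tissues (chromosome 4, 86648386 to 86670060, minus strand), went the other way. Its CPM was 13.59, 17.08, 18.22, 18.13 and 19.2 in AL, 15.98, 15.71, 13.37, 14.36 and 13.31 in IF16, and 14.33, 14.9, 13.4, 13.94 and 16.74 in EOD. In both fasting groups every library lay below 4 of the 5 AL libraries, and AL replicate 1, the lowest, kept the groups overlapping. The log2 fold change was -0.25 in IF16 and -0.23 in EOD (SE 0.10 each), and -0.12 in EOD with the gene length gradient of each library as a covariate. Of the other perilipins, Plin3 differed by 0.03 in IF16 and 0.05 in EOD (adjusted p = 0.89 and 0.748), Plin5 by -0.22 and -0.27 (adjusted p = 0.744 and 0.561), and Plin1, the main perilipin of fat cells, had at most 5 counts in any library.

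Pdk4 encodes a kinase that shuts off pyruvate dehydrogenase and so spares glucose when fat is burned. It lies on chromosome 6 from 5483351 to 5496309, minus strand. Its CPM was 8.154, 8.91, 8.652, 6.004 and 8.001 in AL, and 12.42, 13.23, 12.18, 11.49 and 15.46 in EOD, with no overlap. In IF16 it was 7.662, 8.188, 11.73, 17.34 and 18.09, so that replicates 1 and 2 lay within AL and replicates 4 and 5 above every EOD library. On the log2 scale Pdk4 differed by 0.71 in EOD and 0.66 in IF16 (SE 0.21 each). The 3 other kinases of the family showed smaller differences, none past the test: in EOD Pdk1 stood at -0.14, Pdk2 at -0.21 and Pdk3 at 0.08 (adjusted p = 0.407, 0.429 and 0.516), and in IF16 at -0.005, -0.20 and 0.07 (adjusted p = 0.987, 0.616 and 0.697).

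Cpt1a encodes the carnitine palmitoyltransferase that lets long-chain fatty acids into mitochondria, the rate-setting step of their oxidation. It lies on chromosome 19 from 3323301 to 3385732, plus strand. Its CPM was 29.41, 33.97, 34.44, 29.14 and 27.46 in AL, 28.72, 30.44, 32.74, 33.54 and 29.99 in IF16, and 41.31, 39.72, 37.24, 41.83 and 37.96 in EOD. EOD lay wholly above both other groups, while IF16 lay wholly within the range of AL. As a log2 fold change Cpt1a stood at 0.36 in EOD against AL and 0.35 against IF16 (SE 0.07 each), and 0.01 in IF16 against AL. The muscle form Cpt1b differed by 0.48 in EOD at under 1 CPM (adjusted p = 0.353), and the brain form Cpt1c by -0.14 at 102.5 CPM (adjusted p = 0.453). The next steps of the carnitine shuttle, Slc25a20 and Cpt2, stood at 0.03 and 0.06 in EOD (adjusted p = 0.868 and 0.804). Acacb, whose product malonyl-CoA inhibits CPT1, stood at 0.20 and Mlycd, which removes malonyl-CoA, at -0.29 (adjusted p = 0.416 and 0.329).

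Ucp2 encodes a carrier of the inner mitochondrial membrane, of the uncoupling protein family. It lies on chromosome 7 from 100493337 to 100502020, plus strand. Its CPM was 42.13, 65.01, 63.19, 88.14 and 73.83 in AL, 77.31, 67.58, 51.5, 82.29 and 82.82 in IF16, and 81.91, 65.3, 90.11, 93.78 and 105.9 in EOD. EOD had 3 libraries above every AL library and IF16 had none. As a log2 fold change Ucp2 stood at 0.40 in EOD and 0.12 in IF16 (SE 0.17 each). The IF16 value ranged from 0.00004 without AL replicate 1 to 0.32 without the 4 libraries of extreme gradient. It was 0.27 in EOD without AL replicate 1, the lowest library, and 0.60 with the gene length gradient as a covariate. The relatives Ucp3, Slc25a14 and Slc25a27 differed in EOD by 0.18, -0.04 and 0.03 (adjusted p = 0.513, 0.803 and 0.83), and Ucp1 was under 1 CPM in the mean of each group at the end of the regimens.

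For both receptor genes, the libraries of each fasting regimen overlapped those of AL. Ppard (chromosome 17, 28232754 to 28301469, plus strand) had a CPM of 52.25, 56.84, 56.71, 58.64 and 64.52 in AL, 53.39, 59.69, 47.81, 51.24 and 53.01 in IF16 and 51.29, 53.68, 53.55, 65.2 and 58.03 in EOD. Ppard differed on the log2 scale by -0.12 in IF16 and -0.04 in EOD (SE 0.08 each), and the groups overlapped. Ppara (chromosome 15, 85734983 to 85802819, plus strand) rested on few reads, 13 to 68 counts per library at the end of the regimens. Its CPM was 1.59, 1.901, 1.485, 0.5155 and 0.416 in AL, 0.8413, 1.096, 1.99, 1.565 and 1.563 in IF16 and 1.621, 1.77, 1.438, 1.795 and 0.8107 in EOD. The log2 fold change of 0.25 in IF16 and 0.31 in EOD (SE 0.36 each) depended on AL replicates 4 and 5, the lowest libraries, which were also 2 of those with fewer reads from long genes. In EOD it was 0.12 without AL replicate 4 and 0.10 without AL replicate 5. Without the 4 libraries of extreme gene length gradient it was -0.09 in IF16 and -0.25 in EOD. The third receptor gene, Pparg, stood at -0.23 in IF16 and 0.003 in EOD (adjusted p = 0.58 and 0.992), and the partners Rxra and Rxrb at 0.12 and -0.16 in EOD (adjusted p = 0.491 and 0.443).

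**Figure D2:**
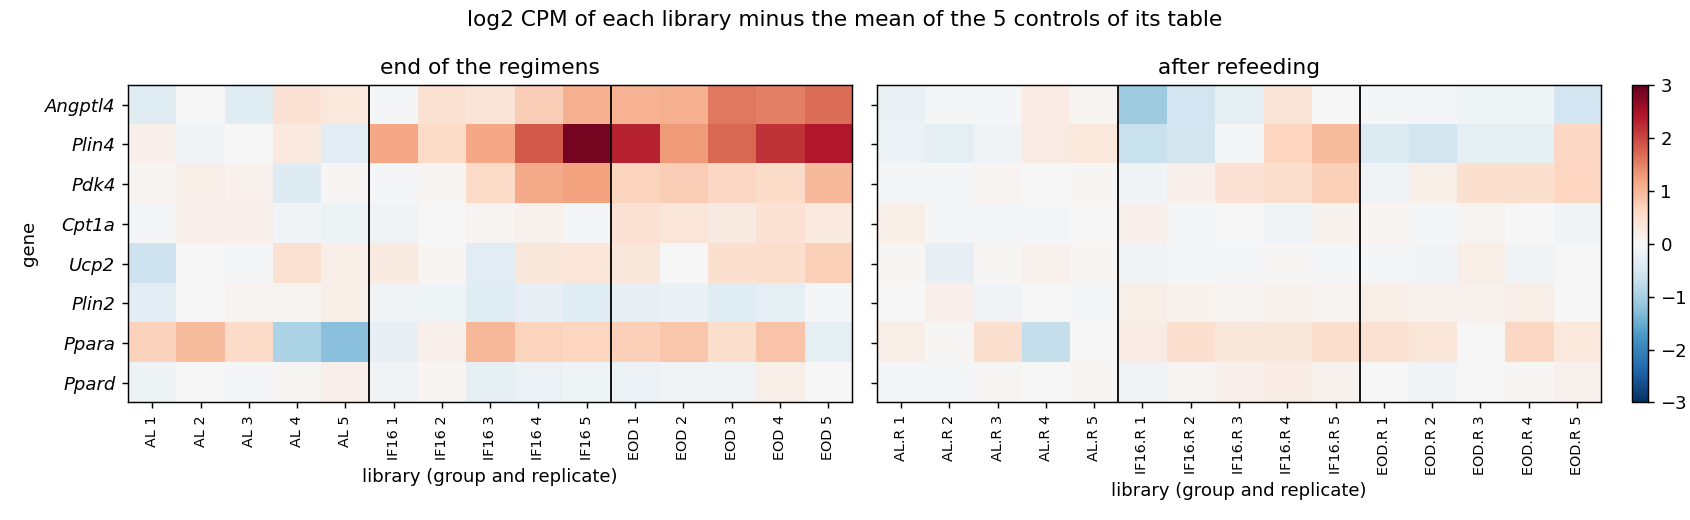
Difference in log2 CPM of each library (columns, by group and replicate) from the mean of the 5 controls of its own table, for each of the 8 genes (rows); red is higher and blue lower. The top rows are red across EOD and uneven across IF16, where replicates 4 and 5 stand out for Plin4 and Pdk4, and the right panel, after refeeding, is paler.

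Against AL, 4 of the 8 (Angptl4, Plin4, Pdk4 and Cpt1a) had EOD libraries wholly above the controls, where 1.36% of the 16577 genes tested were higher without overlap. In IF16 it was 1 of the 8, Plin4, where 0.857% of genes were. Between the regimens, Cpt1a was the single one whose EOD libraries lay wholly above IF16, where 0.314% of genes did. The choice of the genes used these contrasts, so the counts describe the genes and support nothing. Both regimens were set against the same 5 AL libraries, and the values in IF16 and EOD share them. At a threshold of adjusted p under 0.05, edgeR called 11 of all genes in EOD against AL (0.0664%) and 8 in IF16 (0.0483%).

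Across the 15 libraries at the end of the regimens, log2 CPM of Plin4 and Pdk4 correlated at Pearson r = 0.821, Angptl4 and Plin4 at 0.797 and Angptl4 and Ucp2 at 0.734. After removal of each group's mean the same pairs stood at 0.63, 0.504 and 0.668. Cpt1a with Angptl4 went from 0.644 to -0.253 in the same way. The libraries share their 3 groups, and no test is given. Plin2 ran against Plin4 (r = -0.629) and against Ppara (-0.703), and with group means removed these pairs stood at -0.275 and -0.676. For each library the 6 targets were averaged as standardized log2 CPM, and 13099 other genes of at least 1 CPM were ranked by their correlation with that profile. Plin2 entered the average with the same sign as the others, although it ran against Plin4. AL replicate 1 had the lowest value of the profile, -1.25, apart from the other libraries. The 5 most alike were Dyrk3 (r = 0.874), Cdkn1a (0.871), Sult1a1 (0.856), Tmem229b (0.837) and Homez (0.837). In the 15 refed libraries the same genes correlated with the profile at 0.395, 0.591, 0.208, 0.573 and -0.114. With group means removed, the 5 most alike were Lgals3bp, Dyrk3, Xdh, Arrdc2 and Cpt2, of which 1 was shared.

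Levels of cell type markers at the end of the regimens are given here beside the 8 genes. The summed level of 10 endothelial markers was 361 to 394 CPM in AL, 324 to 361 in IF16 and 306 to 385 in EOD, and their mean log2 CPM was lower in every IF16 library than in any AL library. The sum of 8 pericyte and smooth muscle markers was 280 to 361 CPM in AL, 254 to 326 in IF16 and 252 to 297 in EOD. The mean log2 CPM of the 5 forebrain markers was -0.494 in AL, -0.772 in IF16 and -0.806 in EOD, with EOD wholly below AL, and that of the 8 Purkinje cell markers was 8.42, 8.47 and 8.49, with overlap. Groups overlapped in the choroid plexus and liver markers. The 11 choroid plexus markers summed to 45.6 to 4270 CPM in AL, 40.5 to 3090 in IF16 and 754 to 2890 in EOD. With choroid plexus level as a covariate, the log2 fold change in EOD was 1.38 for Angptl4, 2.14 for Plin4, 0.73 for Pdk4 and 0.34 for Cpt1a. The 8 liver markers summed to 1.56 to 2.94 CPM in AL and to 1.54 to 98.1 in EOD, the highest in replicate 1. Without that library the differences in EOD were 1.44, 1.94, 0.72 and 0.34 for the same 4 genes. The part of endothelial, pericyte, forebrain and Purkinje cells in these results was not tested.

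After refeeding none of the 8 genes differed past the test. In refed IF16 against refed AL edgeR called 0 of the 8 (28 of 16444 genes, 0.17%), with 1 at an unadjusted p under 0.05 (all genes, 9.58%) and 0 by DESeq2. In refed EOD against refed AL it called 0 of the 8 (7 genes, 0.0426%), with 2 at an unadjusted p under 0.05 (all genes, 8.5%) and 0 by DESeq2, which gave no adjusted p for 3 of the 8 (Angptl4, Plin4 and Ppara). In refed EOD against refed IF16 it called 0 (3 genes, 0.0182%), with 0 at an unadjusted p under 0.05 (all genes, 9.75%) and 0 by DESeq2, which gave no adjusted p for 5 of the 8. Over all genes DESeq2 called 105, 87 and 123 in the 3 comparisons. The library values of each of the 8 genes overlapped in all 3 comparisons, while 2.18%, 1.87% and 1.26% of all genes did not overlap in them.

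Angptl4 was at 2.155, 2.395, 2.381, 2.974 and 2.641 CPM in refed AL, 1.194, 1.662, 2.069, 3.244 and 2.513 in refed IF16 and 2.376, 2.433, 2.28, 2.28 and 1.672 in refed EOD. The log2 fold change was -0.24 in refed IF16 (95% interval -0.65 to 0.17, adjusted p = 0.721, edgeR) and -0.19 in refed EOD (-0.60 to 0.23, adjusted p = 0.857). Plin4 was at 2.155, 2.031, 2.283, 2.885 and 3.061 CPM in refed AL, 1.552, 1.662, 2.355, 3.852 and 4.728 in refed IF16 and 1.833, 1.675, 2.023, 1.987 and 3.755 in refed EOD. Its log2 fold change was 0.18 in refed IF16 (-0.41 to 0.76, adjusted p = 0.868) and -0.14 in refed EOD (-0.73 to 0.46, adjusted p = 0.937). Without refed EOD replicate 5, the lowest of its group for Angptl4 and the highest for Plin4, the differences in refed EOD were -0.10 and -0.40. In refed IF16 single libraries moved both values: Angptl4 stood at -0.09 without replicate 1 and -0.43 without replicate 4, and Plin4 at -0.09 without replicate 5 and 0.34 without replicate 1.

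Pdk4 had the smallest p of the 8 genes in both comparisons with refed AL, unadjusted 0.0141 and 0.0175. Its CPM was 6.895, 6.761, 7.404, 7.108 and 7.262 in refed AL, 6.684, 7.882, 9.549, 10.2 and 11.67 in refed IF16 and 6.552, 8.058, 9.924, 9.838 and 11.04 in refed EOD. In each formerly fasted group 4 of 5 libraries lay above all 5 controls, and replicate 1 lay below them. The log2 fold change was 0.37 in refed IF16 (0.08 to 0.66, adjusted p = 0.383, edgeR) and 0.36 in refed EOD (0.07 to 0.65, adjusted p = 0.458), so neither passed after adjustment over all genes. Both comparisons share the 5 refed AL libraries, whose Pdk4 values spanned 6.761 to 7.404 CPM. The length gradient of all 5 refed IF16 libraries lay above that of refed AL, and with it as a covariate Pdk4 stood at 0.28 in refed IF16 and 0.35 in refed EOD (adjusted p = 0.999 and 0.445).

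Cpt1a and Ucp2 lay close to the controls after refeeding. Cpt1a differed by 0.03 in refed IF16 (-0.08 to 0.15) and by 0.003 in refed EOD (-0.11 to 0.12), with adjusted p = 0.87 and 0.995 in edgeR. Ucp2 differed by -0.05 (-0.18 to 0.08) and -0.006 (-0.14 to 0.12), with adjusted p = 0.812 and 0.99. Mean Cpt1a CPM was 30.54 ± 2.07 in refed AL, 31.26 ± 1.95 in refed IF16 and 30.61 ± 1.31 in refed EOD, and mean Ucp2 CPM was 56.61 ± 5.27, 54.53 ± 1.9 and 56.36 ± 4.59 (SD, n = 5). Plin2 stood at 0.11 (-0.01 to 0.23, adjusted p = 0.542) and 0.12 (0.01 to 0.24, adjusted p = 0.57), the opposite sign to that at the end of the regimens, with means of 15.86, 17.12 and 17.25 CPM in refed AL, refed IF16 and refed EOD. Ppara stood at 0.35 (-0.001 to 0.70, adjusted p = 0.522) and 0.32 (-0.04 to 0.67, adjusted p = 0.634), and at 0.04 and 0.29 with the length gradient as a covariate. With that covariate Angptl4 stood at -0.41, Plin4 at -0.005 and Ucp2 at 0.06 in refed IF16. Ppard stood at 0.09 (-0.03 to 0.20, adjusted p = 0.626) and 0.01 (-0.11 to 0.12, adjusted p = 0.99). Markers of astrocytes and Bergmann glia also differed in these libraries: the 10 genes had a mean log2 CPM of 7.76 in refed AL, 7.88 in refed IF16 and 7.87 in refed EOD, each refed regimen wholly above refed AL. Their part in the values of the 8 genes was not tested.

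**Figure D3:**
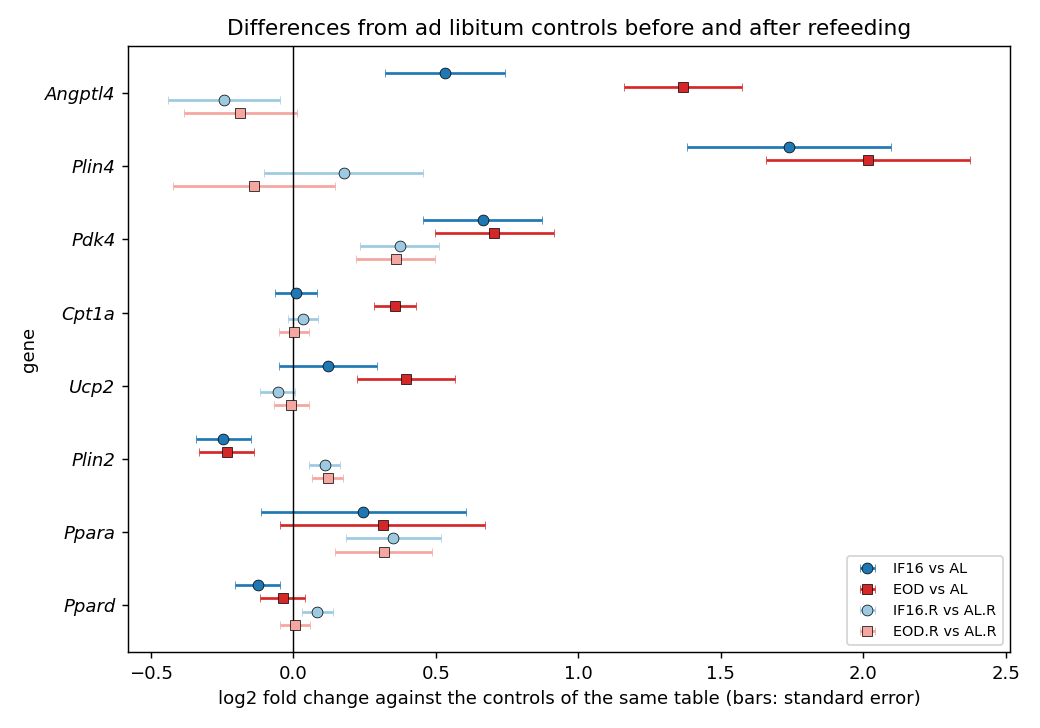
Log2 fold change of each of the 8 genes against the controls of the same table, with the standard error as bars; circles are the daily 16 h fast, squares alternate-day fasting, dark symbols the end of the regimen and pale symbols after refeeding. In EOD, Angptl4 stands at 1.37 at the end of the regimen and -0.19 after refeeding, Plin4 at 2.02 and -0.14, and Pdk4 at 0.71 and 0.36. The values at the end of the regimen entered the choice of the genes. After refeeding, in other libraries, none of the 8 passed the test.

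A joint fit of all 30 libraries gave, for each gene, the difference between the fold change after refeeding and that at the end of the regimen. As the end of the regimens entered the choice of the genes, these values are descriptions. For EOD they were -1.56 for Angptl4 (SE 0.30), -2.16 for Plin4 (SE 0.49), -0.36 for Cpt1a (SE 0.09), -0.41 for Ucp2 (SE 0.19) and -0.35 for Pdk4 (SE 0.27), and 0.35 for Plin2 (SE 0.11). Ppara stood at 0.005 (SE 0.43) and Ppard at 0.04 (SE 0.09) for EOD. For IF16 they were -0.78 for Angptl4 (SE 0.30), -1.56 for Plin4 (SE 0.49), -0.29 for Pdk4 (SE 0.27) and -0.18 for Ucp2 (SE 0.19). The other IF16 values were 0.36 for Plin2 (SE 0.11), 0.21 for Ppard (SE 0.09), 0.11 for Ppara (SE 0.40) and 0.03 for Cpt1a (SE 0.09). Over all genes edgeR called 2 for EOD (0.0119%) and 8 for IF16 (0.0474%).

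Genes of the wider PPAR pathway were read from a list drawn up with earlier results of these data known. Its counts and p-values at the end of the regimens are therefore not independent evidence. The list held 97 further genes in 7 roles: receptors and cofactors, fatty acid uptake, lipid droplets, mitochondrial and peroxisomal oxidation, ketone synthesis, and pyruvate and uncoupling control. Of these, 88 passed the filter on low counts. In EOD against AL, 1 of the 88 rose and 0 fell (all genes, 0.0664%), with 6 higher and 7 lower at an unadjusted p under 0.05 (all genes, 14.4%). Without the 4 libraries of extreme length gradient, and with the replicate number as a block, the count was 0. The list's median log2 fold change was 0.02, beside -0.02 over all genes tested. By role the median in EOD was 0.20 for receptors and cofactors (10 of 13 above 0), 0.04 for peroxisomal oxidation (8 of 11) and 0.05 for pyruvate and uncoupling control (6 of 10). It was -0.01 for mitochondrial oxidation (11 of 22 above 0), -0.05 for fatty acid uptake (7 of 16) and -0.06 for lipid droplets (6 of 13). In IF16 against AL 0 of the 88 were called by edgeR and 1 by DESeq2 (Lpl), where 8 and 94 of all genes were. At an unadjusted p under 0.05 there were 2 higher and 2 lower (all genes, 9.92%). The list's median in IF16 was -0.03, beside -0.01 over all genes. In EOD against IF16 0 were called by edgeR and 1 by DESeq2, where 0 and 1 of all genes were. In that comparison 3 stood at an unadjusted p under 0.05, all higher (all genes, 3.62%).

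Within the roles, none of the following passed the test in EOD against AL, where their adjusted p in edgeR lay between 0.305 and 0.384. Among receptors and cofactors, Lpin1 differed by 0.21, Rxrg by -0.72 at under 1 CPM and Ppargc1a, the coactivator of mitochondrial genes, by 0.30. Among genes of fatty acid uptake, Acsl4, which activates long-chain fatty acids, differed by 0.26 and Angptl1 by -1.07 at under 1 CPM. Among lipid droplet genes, Mgll, which cleaves monoacylglycerol, differed by -0.17 with EOD wholly below AL, and G0s2, an inhibitor of fat breakdown, by -0.35. Mgll was the 1 of the 88 pathway genes wholly below AL, and 1 lay wholly above (all genes wholly above, 1.36%). Among oxidation genes, Eci1 differed by -0.24 and the peroxisomal thiolase Acaa1a by -0.12. Among pyruvate genes, Pdha1 differed by 0.21 and the phosphatase Pdp2 by 0.33. Pnpla2, the main triglyceride lipase, differed by 0.04 and Acot1, a thioesterase often used as a PPARα marker, by -0.09, with adjusted p = 0.896 and 0.616. In IF16 against AL, Cideb stood at 0.56, Abcd2 at 0.19 and Slc25a27 at 0.12 (adjusted p = 0.477, 0.505 and 0.554).

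After refeeding 0 of the 88 pathway genes were called by edgeR in any of the 3 comparisons. DESeq2 called 1 in refed IF16 against refed AL, 0 in refed EOD against refed AL and 1 in refed EOD against refed IF16. Over all genes it called 105, 87 and 123 in the same order. It gave no adjusted p for 7, 18 and 39 of the 88. At an unadjusted p under 0.05 there were 4 in refed IF16 against refed AL, 8 in refed EOD against refed AL and 8 in refed EOD against refed IF16. Of all genes, 9.58%, 8.5% and 9.75% stood under that threshold in the same order. Ncoa2, a coactivator of nuclear receptors, had the smallest p in refed IF16 (log2 fold change 0.16, adjusted p = 0.154) with libraries wholly above refed AL. Acot1 had the smallest in refed EOD (0.21, adjusted p = 0.329), also without overlap, beside Ppargc1b (-0.28, adjusted p = 0.334), Fabp5 (0.15, adjusted p = 0.413) and Abcd2 (0.11, adjusted p = 0.46). Acsl3, which activates fatty acids, differed by 0.14 in both refed regimens (adjusted p = 0.587 and 0.64), and Dgat2, which makes triglyceride, by -0.10 in refed IF16 (adjusted p = 0.573). In refed EOD against refed IF16 Ppargc1b, a coactivator like Ppargc1a, had the smallest p (-0.44, adjusted p = 0.115), with refed EOD wholly below refed IF16. Groups did not overlap, in either direction, in 2.18%, 1.87% and 1.26% of all genes in the 3 comparisons.

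**Figure D4:**
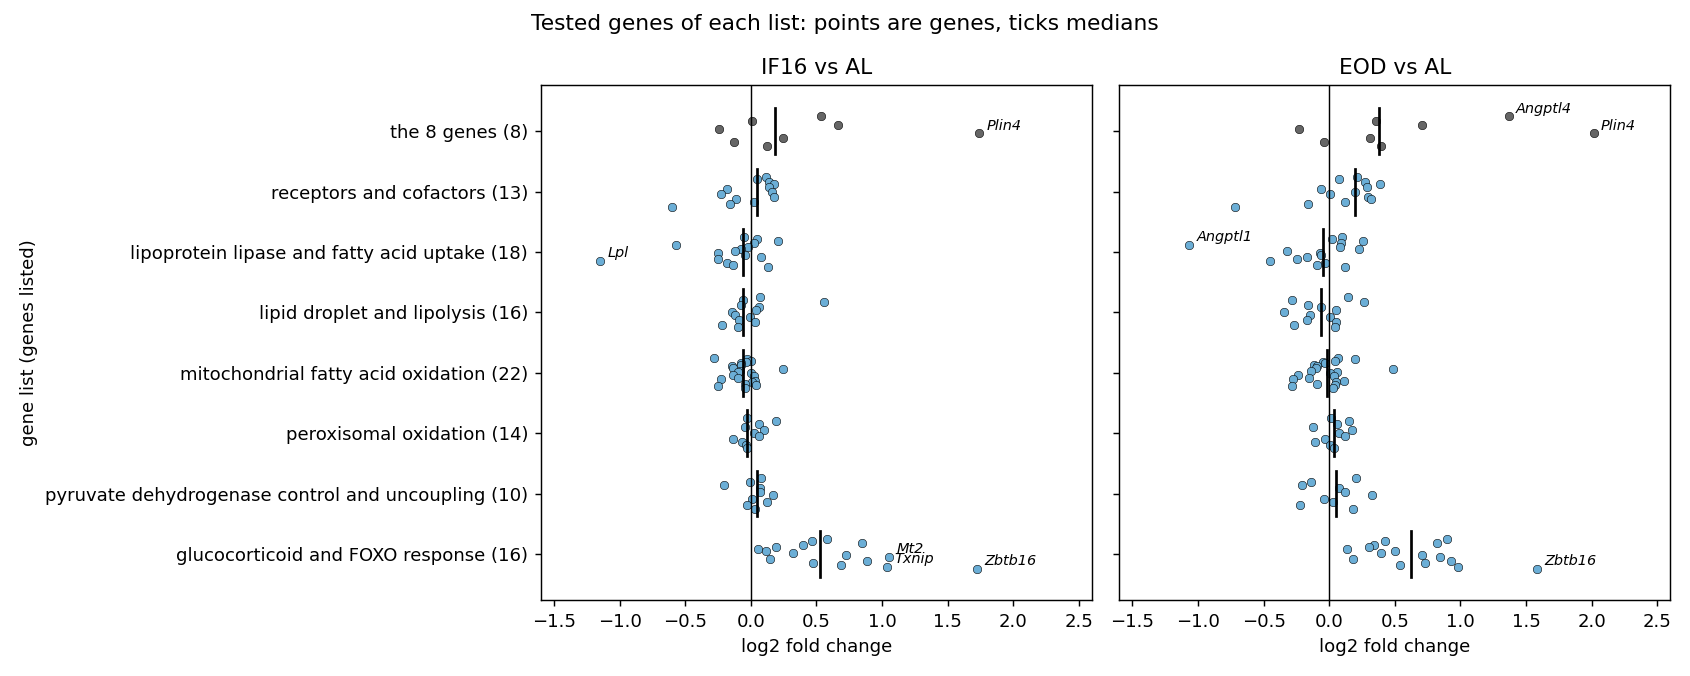
Log2 fold change against AL of the tested genes of each list (rows, with the number of genes listed) in IF16 (left) and EOD (right); points are genes and vertical ticks list medians, for 6 of the 7 pathway roles. Medians of these 6 rows lie between -0.06 and 0.20. All 16 points of the glucocorticoid and FOXO row lie above 0. That list was drawn up with results of these libraries in view, so its direction is a description.

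Pdk4, Angptl4 and Cpt1a are known to answer to glucocorticoids and FOXO factors as well as to PPARs, so 16 other genes of that response were read in the same fits. This list was drawn up with results of these libraries in view. Its direction, counts and p-values at the end of the regimens are descriptions and not independent evidence. The part of glucocorticoids, FOXO factors or PPARs was not tested. All 16 were above 0 in both regimens (all genes, 48.7% in IF16 and 46.7% in EOD), with a median log2 fold change of 0.53 in IF16 and 0.62 in EOD. None was called by edgeR, with 10 in IF16 and 13 in EOD at an unadjusted p under 0.05, all higher (all genes higher, 4.35% and 7.02%). DESeq2 called 5 and 4 of the 16, and 94 and 133 over all genes. Txnip, a brake on glucose uptake, had a mean CPM of 14.84 ± 0.855 without fasting (AL), 30.52 ± 11.3 with the daily fast and 29.28 ± 6.63 with alternate-day fasting (SD, n = 5). Both fasting groups lay wholly above AL for Txnip, where 0.857% (IF16) and 1.36% (EOD) of all genes did. The log2 fold change of Txnip was 1.04 and 0.98 (adjusted p = 0.105 and 0.153, edgeR). The metallothionein Mt1 stood at 0.72 and 0.71 (adjusted p = 0.2 and 0.203) and Sult1a1, a sulfotransferase, at 0.48 and 0.73 (adjusted p = 0.432 and 0.203). After refeeding the list's median was 0.05 in refed IF16 and -0.01 in refed EOD, with none called by edgeR. At an unadjusted p under 0.05 there were 4 genes in refed IF16, 2 higher and 2 lower, and 0 in refed EOD (all genes, 9.58% and 8.5%).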

How the data were processed

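RNA-seq of mouse cerebellum was read from 2 tables of 15 libraries each, 1 from the end of the regimens and 1 from after refeeding. Per-gene values in the count tables are unnormalized whole-number read counts as the authors deposited them. The authors also deposited FPKM, which were used only to compare levels between genes. STAR 2.5, HTSeq 0.6.1 and the build mm10 are named in the submitters' processing notes, and the handling of read strand and the selection of RNA are not given in the sources used here. The 12 chromatin samples were not analysed here. Libraries were grouped by their treatment labels.

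Counts of each table were fitted with edgeR 4.0.16 (R 4.3.3): TMM factors, filterByExpr, the quasi-likelihood test over the 3 groups of the table, and Benjamini-Hochberg adjustment over all genes tested (16577 at the end of the regimens, 16444 after refeeding). A joint fit of all 30 libraries (16877 genes) gave the interactions. CPM values are TMM-scaled within a table, so levels are not compared across tables. DESeq2 1.42.0, other scaling, filters, covariates, the replicate block and leaving out each library were the alternatives. The genes, the lists and the rules for naming genes were chosen with earlier results of these data known. The pathway genes named were fixed relatives and partners of the 8 genes, and in each role the 2 of smallest p in EOD against AL and those of smallest p in IF16 against AL and in the refed comparisons with refed AL. From the glucocorticoid and FOXO list the 3 of smallest p in EOD against AL were named. Some genes this rule selects, among them the called one, are not reported here. Of the identifiers, 34490 were found in the gene name table. On simulated counts with 100 genes changed by 0.5 and 100 by 1 on the log2 scale, the EOD against AL fit (16465 genes) recovered 56% and 97%, and the refed EOD against refed AL fit (16322 genes) 80% and 98%. Unchanged genes called numbered 4 and 15. The simulated libraries were drawn independently, without shared effects such as the length gradient or choroid plexus level. The recovered shares are therefore not the sensitivity of the tests on the real libraries. Replicates of a group differed beyond counting noise in all 60 pairs.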

Additional observations from a re-analysis of the deposited data

Results flagged for a closer look

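Of the 48 sets of 5 libraries examined (8 genes in 6 groups), 4 held a library far from the others by Dixon's ratio of its gap to the range, with a critical value of 0.71, and chance alone flags about 1 in 20. Angptl4 in refed EOD replicate 5 was at 1.672 CPM against a group median of 2.28 (ratio 0.799). Plin4 in the same library was at 3.755 CPM against a median of 1.987 (ratio 0.833), so that library was the lowest of its group for Angptl4 and the highest for Plin4. It is also the refed library with 724 counts of Alb but 0 of Ahsg, Fga and Fgb. Without it the log2 fold change in refed EOD went from -0.19 to -0.10 for Angptl4 and from -0.14 to -0.40 for Plin4, and neither passed the test in edgeR with or without it. Cpt1a in refed AL replicate 1 was at 34.17 CPM against a median of 29.68 (ratio 0.777). Ucp2 in refed EOD replicate 3 was at 64.3 CPM against a median of 54.69 (ratio 0.725).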

How the results depend on the processing

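After refeeding, 0 of the 8 genes were called under any alternative or with any library left out, where DESeq2 gave no adjusted p for 3 of them in refed EOD against refed AL and 5 in refed EOD against refed IF16. Counts over all genes were less steady, and the cause was not tested. In the order IF16 and EOD against AL, EOD against IF16, refed IF16 and refed EOD against refed AL, refed EOD against refed IF16, and the interactions of IF16 and EOD, edgeR called 8, 11, 0, 28, 7, 3, 8 and 2 genes, and DESeq2 94, 133, 1, 105, 87, 123, 29 and 14. With the length gradient as a covariate the same counts were 62, 7, 1, 0, 0, 0, 36 and 6. Leaving out 1 library gave 3 to 10, 2 to 6, 0, 0 to 65, 0 to 16, 0 to 71, 5 to 16 and 0 to 6. The highest counts after refeeding came without refed IF16 replicate 1 (65) and without refed EOD replicate 1 (16 and 71). With RLE factors EOD against AL had 7 calls, 5 higher and 2 lower, against 9 and 2. With upper-quartile factors refed EOD against refed AL had 0 and the EOD interaction 1. With no filter on low counts EOD against IF16 had 1, refed EOD against refed AL 11, refed EOD against refed IF16 6 and the EOD interaction 4. With choroid plexus markers as a covariate IF16 and EOD against AL had 4 and 18, and refed EOD against refed AL 16. Fitting only the 2 groups compared gave 5 in IF16 against AL, 1 in EOD against IF16, 4 in refed EOD against refed AL and 0 in refed EOD against refed IF16. Without the 4 libraries of extreme length gradient EOD against AL had 2.

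The labels do not say what a replicate number shares, and not every same-numbered pair correlated over 0.1, so the numbers were not taken as pairs. Deviations of same-numbered libraries correlated at -0.534 to 0.322 at the end of the regimens and -0.0545 to 0.427 after refeeding, with 3 and 8 of 15 pairs over 0.1. After refeeding the median was 0.104, against -0.0415 for the 60 pairs of unlike number, of which 12 were over 0.1, and 7 of 15 libraries correlated best with their own number (0 of 15 at the end of the regimens), a hint from the data and not from the design. With a replicate block the counts were 5 in IF16 and 4 in EOD against AL, 95 in refed IF16 and 45 in refed EOD against refed AL, 40 in refed EOD against refed IF16 and 10 for the EOD interaction. Under the block Pdk4 stood at 0.355 in refed IF16 and 0.34 in refed EOD (adjusted p = 0.0819 and 0.117, edgeR). Under the block 0 pathway genes were called in EOD against AL and 1 in refed EOD against refed IF16.

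Of the pathway list, the single call in EOD against AL was also lost, to 0, without the 4 libraries, and stayed at 1 with any 1 library left out. In IF16 against AL the list went from 0 to 1 with DESeq2, with the length gradient and without the 4 libraries, and to 0 to 1 with 1 library left out (1 without AL replicate 5), the gene being Lpl each time. In EOD against IF16 it went to 1 with DESeq2, no filter, the length gradient and only the 2 groups, in refed IF16 against refed AL to 1 with DESeq2, and in refed EOD against refed IF16 to 1 with DESeq2 and no filter, and 0 to 1 with 1 library left out. Of the 5 most alike genes, 1 was shared once group means were removed, and 0 promoter windows held the PPAR element at 1 mismatch. Ppara in EOD against AL had a log2 fold change of 0.31, and of -0.17 once each library's length gradient entered the fit. Few reads limit the precision of Ppara, with 13 to 68 counts per library at the end of the regimens and 39 to 94 after refeeding, and of refed Angptl4, with 40 to 100.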
